A study of Bos taurus with 40 samples.

Results

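The gene described is serine dehydratase (SDS), given in the files by the Ensembl identifier ENSBTAG00000031814. It is 1 of 13781 genes listed in either period of the study and 1 of the 13509 listed in both, and it was measured in all 40 libraries. The gene was chosen from measured values of these same libraries, namely its fold changes between RES and ADLIB bulls of Period 1 and between the end of Period 2 and of Period 1 in RES bulls. The name SDS rests on those fold changes, which equal the ones the study lists for SDS, because none of the tables used here paired the identifiers with symbols (0 of 13781 were paired). When the fold changes of both comparisons were computed here with edgeR's likelihood ratio test and rounded to 1 decimal, 1 gene of 13509 had the pair of values of this row. Of the 13685 genes listed in Period 1, 3 had the rounded Period 1 value. Of the 13509 genes listed in both periods, 1 had the rounded value of RES animals over time.

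Serine dehydratase is a pyridoxal phosphate enzyme that deaminates serine to pyruvate and ammonia. The pyruvate can enter gluconeogenesis or be oxidised. The gene is best known from liver, where high protein intake, glucagon and glucocorticoids raise its expression, and it is a textbook example of an amino acid degrading enzyme whose level follows nutrition. Its nearest relative, SDSL, encodes a similar enzyme. In the RefSeq annotation of the ARS-UCD2.0 assembly SDS lies between the protein-coding genes SDSL and PLBD2. Whether reads of SDSL were counted on the SDS row was not tested.

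The animals were Holstein Friesian bulls on a diet of concentrate and grass silage, and what was sequenced was mRNA of epithelium from the jejunum. RES bulls were restricted to an intake meant to give a gain of 0.6 kg per day until day 125, the end of Period 1, and then ate ad libitum until day 55 of Period 2, the re-alimentation. ADLIB bulls ate ad libitum in both periods. Tissue came from 10 bulls per group at the end of each period, and each library is a different bull, so a change over time compares different animals. The sample labels give 10 bulls in each group, whereas a protocol text common to all samples gives other group sizes and names muscle in its RNA extraction; the sample labels and the tissue field were followed. Markers of epithelium, muscle and other cell types could not be looked up without symbols, so the tissue label was not checked against the data.

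Values are CPM, the reads on a gene per 1000000 reads on the listed genes after TMM scaling, a correction for differences in RNA composition between libraries. Libraries held 4431390 to 8295900 reads on listed genes, with a median of 6923444, and SDS received 6 to 643 of them. Intervals given for a single library are exact Poisson 95% intervals and cover counting error only. In a bulk tissue, fewer cells of a type and less RNA per cell cannot be told apart. In 2 libraries the profile stood apart from the rest of the period. These were RES Period 2 replicate 1, with 585 genes at 0 reads and a correlation of 0.815 with the median library, and RES Period 1 replicate 6, with 87 genes at 0 and a correlation of 0.883. Group means of SDS and differences between whole groups that include them are also given without them.

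Expression of SDS was lowest in the RES bulls that had just been restricted. After re-alimentation, no difference between RES and ADLIB bulls was detected. The order of the 4 groups, by mean as well as by median, was RES Period 1, ADLIB Period 1, ADLIB Period 2 and RES Period 2. The periods were scaled separately by the authors, so levels set across periods were also computed after a common scaling of all 40 libraries, which is the scale of every difference over time below.

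In ADLIB bulls of Period 1, SDS ranged from 9.27 CPM (replicate 10) through a median of 19.6 to 39.0 CPM (replicate 7). The mean was 21.8 ± 9.33 CPM (SD, n = 10). This was a compact group, with a coefficient of variation of 42.7%.

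In RES bulls of Period 1, SDS ranged from 1.03 CPM through a median of 6.83 to 15.4 CPM, with a mean of 7.01 ± 4.75 CPM (SD, n = 10). The lowest animal was replicate 2, in which 6 reads gave 1.03 CPM (95% interval 0.377 to 2.24), and replicate 7 followed at 1.47 CPM. The highest was replicate 5, and with replicates 8 and 10, both at 11.1 CPM, it lay within the ADLIB Period 1 range. Without replicate 6, the library that stood apart, the mean was 7.30 ± 4.94 CPM (SD, n = 9). Relative spread was larger than in ADLIB animals of the same period, with a coefficient of variation of 67.7%.

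In ADLIB bulls of Period 2, SDS ranged from 12.4 CPM through a median of 20.1 to 107 CPM, with a mean of 31.6 ± 28.8 CPM (SD, n = 10). The median was close to that of ADLIB animals in Period 1, and the higher mean came with a single animal. In replicate 10, 643 reads gave 107 CPM (95% interval 99.2 to 116), and the next animal, replicate 6, had 50.6 CPM. That library had 30.8% of its reads in its 10 largest genes, the highest share of the series, and a scaling factor of 0.722, and without TMM scaling its level of SDS was 77.5 CPM. Without it the group had a mean of 23.1 ± 11.7 CPM (SD, n = 9) and a median of 20.0.

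In RES bulls of Period 2, SDS ranged from 10.4 CPM (replicate 9) through a median of 36.2 to 65.7 CPM (replicate 2), with a mean of 34.5 ± 16.1 CPM (SD, n = 10). Of these animals, 3 lay between 10.4 and 20.0 CPM and the other 7 between 34.9 and 65.7 CPM. The library that stood apart, replicate 1, had 42.5 CPM, and without it the mean was 33.6 ± 16.8 CPM (SD, n = 9).

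**Figure D1:**
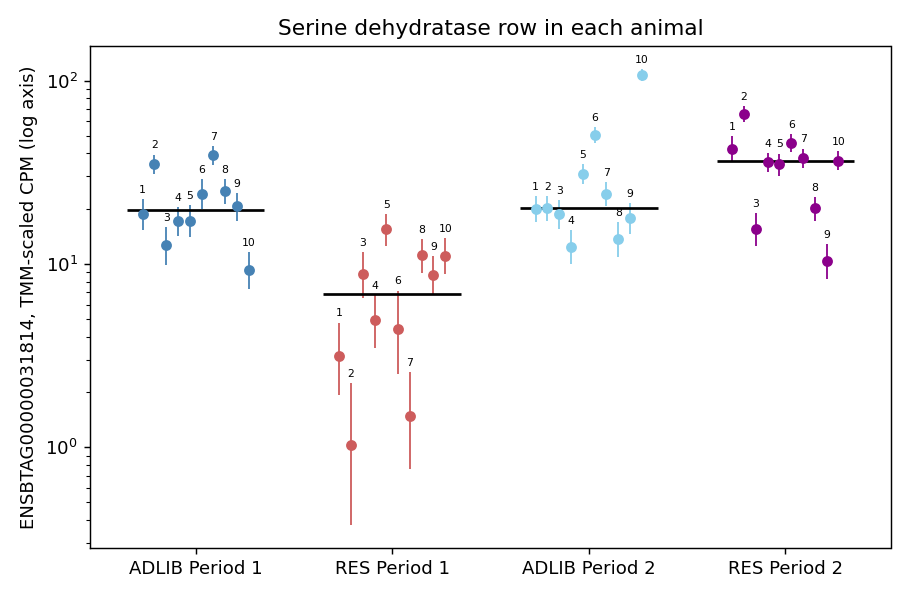
Level of SDS (TMM-scaled CPM, log axis) in each of the 40 animals by group. Points are animals numbered by replicate, bars are exact Poisson 95% intervals and horizontal lines are group medians (19.6, 6.83, 20.1 and 36.2 CPM from left to right); 7 of the 10 RES Period 1 animals lie below every animal of the other groups, and ADLIB Period 2 replicate 10 lies above every other animal.

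The differences between the restricted bulls of Period 1 and either ADLIB bulls of that period or re-alimented RES bulls are those by which the gene was chosen. They are therefore given as descriptions with no test. At the end of Period 1, mean log2(CPM + 1) of SDS was 2.72 in RES and 4.41 in ADLIB animals, a difference of -1.69 (SE 0.35), or 0.310 times the ADLIB level on that scale. Of the RES animals, 7 of 10 lay below the lowest ADLIB animal, and RES was lower in 96 of 100 pairings of a RES with an ADLIB animal. Of the ADLIB animals, 8 lay above the highest RES animal. Without RES Period 1 replicate 6 (4.40 CPM) the difference was -1.66 (SE 0.36), and 6 of 9 RES animals lay below the ADLIB range. Across all genes, limma called 0 of 13685 (0%) at an adjusted p under 0.05 in this comparison and 494 (3.61%) at an unadjusted p under 0.05. Of the count tests at an adjusted p under 0.05, edgeR's likelihood ratio test called 12 genes, DESeq2 11, and the quasi-likelihood test and limma-voom 0 each.

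In RES animals, SDS was higher after re-alimentation than at the end of restriction by 2.25 on the log2(CPM + 1) scale (SE 0.38), or 4.76 times. On this scale, no other gene among the 13509 had a larger absolute difference in this comparison. In the Period 1 comparison, 5 of 13685 had a larger one. Both ranks come from the comparisons that chose the gene, and adding 1 to CPM lowers differences of genes at low levels. By fold change, the study lists genes with larger changes than SDS in both comparisons. On the common scale, 8 of 10 RES Period 2 animals lay above the highest RES Period 1 animal and 7 of 10 RES Period 1 animals below the lowest RES Period 2 animal, and Period 2 was higher in 96 of 100 pairings. Without both libraries that stood apart the difference was 2.17 (SE 0.40). Across all genes, limma called 0 of 13509 (0%) at an adjusted p under 0.05 and 765 (5.66%) at an unadjusted p under 0.05, edgeR's likelihood ratio test called 18, DESeq2 23, and the quasi-likelihood test and limma-voom 0 each at an adjusted p under 0.05. The change over time in RES animals exceeded that in ADLIB animals by 1.98 on the log2(CPM + 1) scale (SE 0.51), a value made of the same comparisons and again given without a test. Without both libraries that stood apart it was 1.89 (SE 0.53).

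The other comparisons were not used to choose the gene, although each shares the libraries of 1 group with a comparison that was. At the end of Period 2, mean log2(CPM + 1) of SDS was 4.99 in RES and 4.70 in ADLIB animals. The difference of 0.28 (SE 0.35, 95% interval -0.44 to 1.01) did not pass the test (limma, p = 0.43, adjusted p = 0.99 over 13605 genes). As a ratio of RES to ADLIB on that scale, the estimate was 1.22 and its interval ran from 0.735 to 2.01. The ranges overlapped, with 1 RES animal (replicate 9, 10.4 CPM) below the lowest ADLIB animal and 1 ADLIB animal (replicate 10, 107 CPM) above the highest RES animal. RES was higher in 64 of 100 pairings. Without ADLIB Period 2 replicate 10 the difference was 0.51, and without RES Period 2 replicate 1 it was 0.23 (SE 0.36), and neither passed the test. Across all genes, limma called 0 of 13605 (0%) at an adjusted p under 0.05 and 280 (2.06%) at an unadjusted p under 0.05. DESeq2, limma-voom and both edgeR tests (likelihood ratio and quasi-likelihood) each called 0 at an adjusted p under 0.05, and 596, 255, 588 and 499 at an unadjusted p under 0.05.

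In ADLIB animals, SDS differed by 0.27 on the log2(CPM + 1) scale between the end of Period 2 and the end of Period 1 (SE 0.32, 95% interval -0.39 to 0.94), which did not pass the test (limma, p = 0.40, adjusted p = 0.88 over 13509 genes). Period 2 was higher in 55 of 100 pairings of animals. Without ADLIB Period 2 replicate 10 the difference was 0.04. Across all genes, limma called 0 of 13509 (0%) at an adjusted p under 0.05 and 684 (5.06%) at an unadjusted p under 0.05, and DESeq2, limma-voom and the likelihood ratio and quasi-likelihood tests of edgeR each called 0 at an adjusted p under 0.05, with 872, 732, 764 and 763 at an unadjusted p under 0.05. The neighbours tested in the order of levels were ADLIB Period 1 and ADLIB Period 2, and ADLIB Period 2 and RES Period 2. Neither pair was shown to differ. RES Period 1 and ADLIB Period 1, the other neighbours, were not tested.

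**Figure D2:**
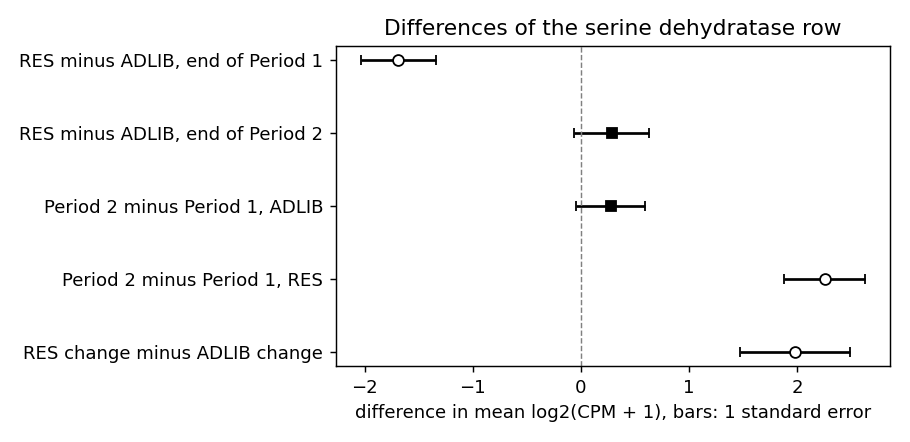
Differences in mean log2(CPM + 1) of SDS between groups, with bars of 1 standard error. Filled squares are the tested comparisons (0.28 and 0.27) and open circles the comparisons by which the gene was chosen or that are made of them (-1.69, 2.25 and 1.98), which have no test.

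Each library carries a code in its label whose leading digit divides the 40 libraries into 4 sets of 10. What the digit stands for is not given in the sources used here. Every set held animals of all groups, 2 to 4 of each. On the common log2(CPM + 1) scale, the Period 1 difference of SDS, RES minus ADLIB, was negative in all 4 sets, at -0.71, -2.44, -1.59 and -2.34 in sets 1 to 4. The difference over time in RES animals was positive in all 4, at 2.16, 3.15, 2.22 and 1.70. Both comparisons chose the gene, so their signs in the sets are descriptions and not a replication. The Period 2 difference between RES and ADLIB had no common sign, with 0.25, 0.85, 1.26 and -0.82. Nor had the change over time in ADLIB animals, with 1.20, -0.15, -0.62 and 0.18. With the set as a covariate the Period 2 difference was 0.35 (limma, adjusted p = 1.0) and the ADLIB change over time 0.11 (limma, adjusted p = 0.92).

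**Figure D3:**
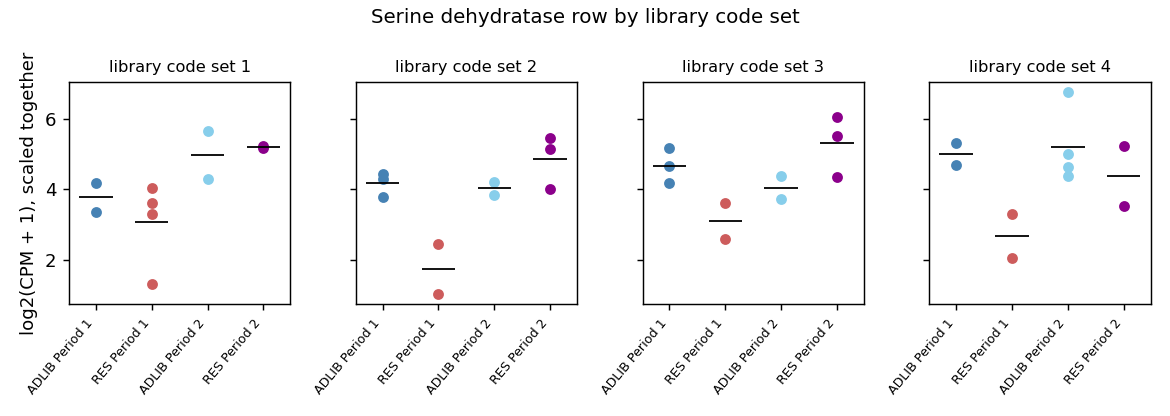
SDS on the log2(CPM + 1) scale after common scaling, by group, in each of the 4 sets of libraries given by the library code. Points are animals and lines are means of the set's animals in a group. The RES Period 1 mean is the lowest in every set, in a group whose low level chose the gene. The order of the Period 2 groups differs between sets.

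SDS varied more between animals of a group than most genes did. Its pooled within-group SD was 0.84 on the log2(CPM + 1) scale, against 0.42 for the median gene, and 92.8% of genes had a smaller SD. By group the SD was 0.59 in ADLIB Period 1, 1.02 in RES Period 1, 0.91 in ADLIB Period 2 and 0.77 in RES Period 2. Counting error on its own would give an SD of 0.12, 0.21, 0.11 and 0.10 in these groups, below the observed SD in each. The biological coefficient of variation estimated by edgeR was 58.4% for SDS and 30.0% for the median gene.

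Variation of SDS within groups was set beside 5 measures of the libraries, each as deviations from the group mean over the 40 animals, with 2-sided permutation tests within groups (100000 resamples). The percentage of a library's reads that its 10 largest genes took moved with SDS (Pearson's r = 0.465, permutation p = 0.00773, adjusted p = 0.0386 over the 5 measures). Its rank correlation did not pass the adjustment (Spearman's rho = 0.342, permutation p = 0.0428, adjusted p = 0.214). Without the 2 libraries whose deviation in this share lay farthest from the median deviation, r was 0.301. The scaling factor had r = -0.333 (permutation p = 0.0450, adjusted p = 0.113) and rho = -0.234 (permutation p = 0.154, adjusted p = 0.256), with r = -0.175 without its 2 most extreme libraries. For the reads on listed genes r was 0.239, for the correlation with the median library -0.154 and for the number of genes at 0 it was 0.137, with adjusted permutation p of 0.232, 0.408 and 0.408. The CPM of SDS are divided by the reads on listed genes and by the scaling factor, so r with either is not free of that division. The part of the 5 measures in the spread of SDS was not tested further.

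To find which genes varied with SDS between animals of the same group, log2(CPM + 1) of every other gene was fitted on that of SDS with the 4 groups as terms. No gene passed: limma called 0 of 13508 (0%) at an adjusted p under 0.05, and 188 (1.39%) at an unadjusted p under 0.05, of which 93 had a positive and 95 a negative slope on SDS. The edgeR quasi-likelihood test on reads called 0 at an adjusted p under 0.05 and 219 at an unadjusted p under 0.05. Pearson's r with SDS over the 40 within-group deviations ran from -0.529 to 0.571 over genes, with a median of -0.0185, and 95% of genes lay between -0.271 and 0.261. The sign of r was positive in every group for 440 genes and negative in every group for 457.

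**Figure D4:**
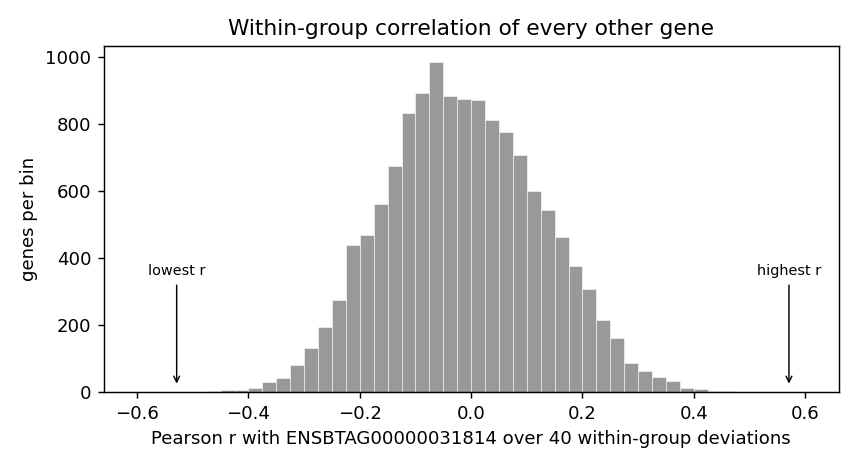
Number of genes by Pearson's r with SDS over 40 within-group deviations of log2(CPM + 1). The 13508 genes centre near 0 (median -0.0185), and arrows mark the lowest (-0.529) and highest (0.571) values.

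The genes at both ends of that range are given by identifier, as the nearest in pattern, and the values of r that chose them are descriptions. The gene nearest to SDS was ENSBTAG00000008945, with r = 0.571 and rho = 0.592 over 40 animals. Within groups r was 0.604 in ADLIB Period 1, 0.565 in RES Period 1, 0.850 in ADLIB Period 2 and 0.709 in RES Period 2, and it was the only gene with r over 0.5 in every group. The fitted slope on SDS was 0.87, both genes in log2(CPM + 1) (SE 0.20; limma, adjusted p = 1.0). Without ADLIB Period 2 replicate 10 and RES Period 1 replicate 2, the animals farthest out in SDS, r was 0.557, and without the 2 libraries that stood apart it was 0.569. In ADLIB Period 1 the value rested on replicate 10, which was the lowest in both genes, at 9.27 CPM of SDS and 2.20 CPM of ENSBTAG00000008945, and r was 0.144 without it. In RES Period 1 r fell to 0.423 without replicate 5. The lowest r without 1 animal was 0.690 in ADLIB Period 2 and 0.529 in RES Period 2.

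By group ENSBTAG00000008945 had a lowest, median and highest level of 2.20, 125 and 260 CPM in ADLIB Period 1 and of 31.6, 60.0 and 111 CPM in RES Period 1. In ADLIB Period 2 these were 40.1, 102 and 391 CPM and in RES Period 2 they were 31.6, 110 and 632 CPM. The highest ADLIB Period 2 animal was again replicate 10, the animal highest in SDS. The highest RES Period 2 animal was replicate 1, the library that stood apart, and without it the median was 104 and the highest level 428 CPM. All 4 groups overlapped. In RES animals ENSBTAG00000008945 was 1.19 higher on the log2(CPM + 1) scale at the end of Period 2 than of Period 1 (SE 0.41; limma, adjusted p = 0.75), against 2.25 for SDS. Its Period 1 difference, RES minus ADLIB, was -0.58 (SE 0.57; limma, adjusted p = 1.0), against -1.69 for SDS. Its Period 2 difference was 0.40 (SE 0.47; limma, adjusted p = 0.99) and over time in ADLIB animals 0.20 (SE 0.62; limma, adjusted p = 0.95). Without both libraries that stood apart, an alternative chosen after seeing the data for this gene, the difference over time in RES animals was 0.84 (SE 0.36; limma, adjusted p = 0.86), the Period 1 difference -0.48 (SE 0.59; limma, adjusted p = 0.95) and the Period 2 difference 0.16 (SE 0.43; limma, adjusted p = 1.0). None of these differences of ENSBTAG00000008945 passed the test.

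**Figure D5:**
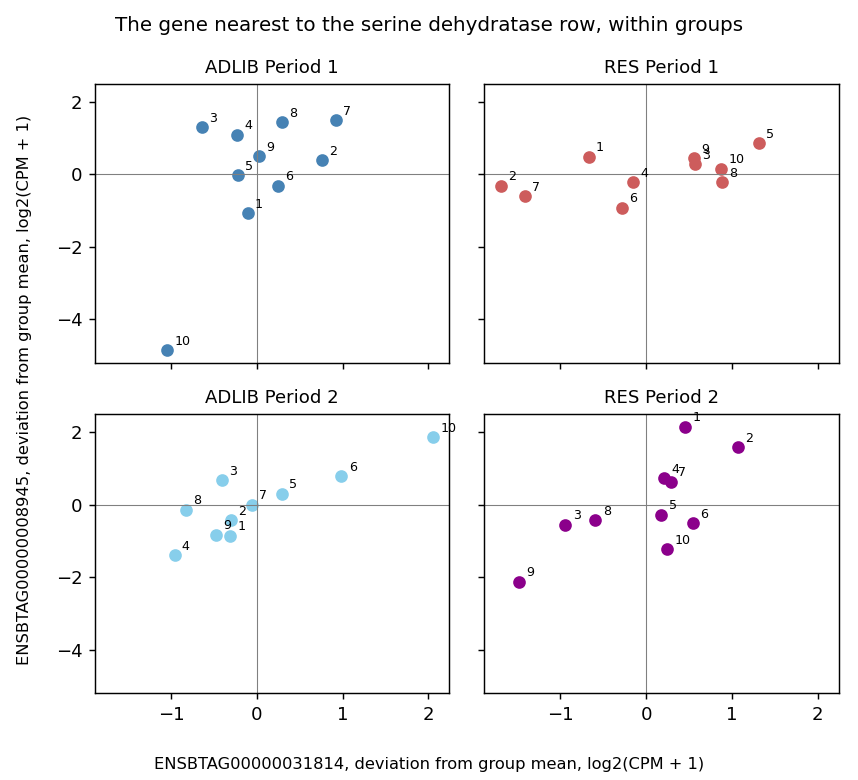
Deviation from the group mean in log2(CPM + 1) of ENSBTAG00000008945 against that of SDS, in each group, with animals numbered by replicate. Within groups r was 0.604 (ADLIB Period 1), 0.565 (RES Period 1), 0.850 (ADLIB Period 2) and 0.709 (RES Period 2), and ADLIB Period 1 replicate 10 lies far below its group.

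The second highest r was that of ENSBTAG00000037953 (r = 0.514, rho = 0.453 over 40 animals), a gene of low level with group means of 1.29 to 1.46 CPM. Its r within groups was uneven, at 0.125 in ADLIB Period 1, 0.810 in RES Period 1, 0.627 in ADLIB Period 2 and 0.184 in RES Period 2, and over all groups it was 0.377 without the 2 animals farthest out in SDS and 0.517 without the 2 libraries that stood apart. Single animals set the values of 3 groups. In ADLIB Period 1 r was -0.271 without replicate 10, in ADLIB Period 2 it was 0.155 without replicate 10, and in RES Period 2 it was 0.664 without replicate 7 and 0.00666 without replicate 2.

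At the other end, ENSBTAG00000012497 had the lowest r (-0.529, rho = -0.556 over 40 animals). It was stable between groups, with means of 88.0 to 94.1 CPM, and its r was negative in every group, at -0.385 in ADLIB Period 1, -0.472 in RES Period 1, -0.680 in ADLIB Period 2 and -0.593 in RES Period 2. The sign in ADLIB Period 1 rested on replicate 7, without which r was 0.0492, and in RES Period 1 r was -0.287 without replicate 7. Over all groups r was -0.528 without the 2 animals farthest out in SDS and -0.529 without the 2 libraries that stood apart. ENSBTAG00000017271 followed with r = -0.482 and rho = -0.411 at group means of 4.20 to 5.39 CPM. Within groups its r ran from -0.149 in ADLIB Period 1 to -0.716 in ADLIB Period 2, and without 1 animal each these were 0.0487 (without replicate 7) and -0.0929 (without replicate 10). Over all groups it was -0.478 without the 2 libraries that stood apart, and -0.382 without the 2 animals farthest out in SDS.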

How the data were processed

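TruSeq libraries were prepared from total RNA of jejunal epithelium and sequenced single-end, 10 animals per group. Per the study's methods, Trim Galore trimmed the reads, TopHat placed them on UMD3.1 and HTSeq counted them on Ensembl protein-coding genes, and edgeR was used for testing. The files hold a deposited signal, CPM that the authors scaled by TMM separately in each period, with 13685 genes listed in Period 1 and 13605 in Period 2. Dividing each value by the worth of 1 read in its library gave whole reads for 100% of values (tolerance 0.01), and scaling factors ran from 0.587 to 1.15. No pair of libraries was identical (0 pairs).

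Comparisons within a period used log2(CPM + 1) of the deposited values, and those between periods used the recovered reads scaled together by TMM over the 13509 shared genes. The test was limma (3.58.1, in R 4.3.3) with an intensity trend and Benjamini-Hochberg adjustment over all genes, called at an adjusted p under 0.05. The alternatives were edgeR (4.0.16), DESeq2 (1.42.0) and limma-voom on the recovered reads, pseudocounts of 0.5 and 2, a filter at 1 CPM, a replicate block, the library code set, other scalings and leaving out animals. An adjusted p under 0.001 was a further alternative for the tested results. Scripts were tested on simulated data. The simulated differences were larger and the spread smaller than those of SDS in the tested comparisons. Detection of differences as small as those of SDS was therefore not tested. The limma p-values weigh a difference or a slope against the spread between these animals within groups. The gene and the lists were chosen with earlier results of these data known. Lists of pathway and cell type genes could not be applied, as 0 of 13781 identifiers were paired with a symbol. The genes named are SDS and the 2 genes with the highest and the 2 with the lowest r. No sequence is printed, as the tables used here hold none.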

Additional observations from a re-analysis of the deposited data

Results flagged for a closer look

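In 5 genes, the highest or lowest of the 10 animals of a group was compared with its nearest neighbour by Dixon's ratio, the gap divided by the range of the group, on the CPM and on the log2(CPM + 1) scale. Of 40 such tests, 6 exceeded Dixon's 95% critical value, and chance flags about 1 in 20.

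For SDS the ratio was 0.597 in ADLIB Period 2 on the CPM scale, where replicate 10 stood at 107 CPM and the next animal at 50.6 CPM. On the log2(CPM + 1) scale, on which the tests were made, 0 groups exceeded the value for SDS.

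For ENSBTAG00000008945 the ratio was 0.595 in ADLIB Period 1 on the log2(CPM + 1) scale, from replicate 10 at 2.20 CPM, and 0.587 in ADLIB Period 2 on the CPM scale, from replicate 10 at 391 CPM. For ENSBTAG00000037953 it was 0.467 in ADLIB Period 2 on the CPM scale, from replicate 10 at 3.01 CPM, and 0.590 in RES Period 2 on the log2(CPM + 1) scale, from replicate 7 at 0.142 CPM. For ENSBTAG00000017271 it was 0.587 in ADLIB Period 2 on the log2(CPM + 1) scale, from replicate 10 at 1.34 CPM. ADLIB Period 2 replicate 10 was thus the outlying animal in all 4 of the ADLIB Period 2 cases. These genes were chosen for varying with SDS, so the cases are not independent of each other.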

How the results depend on the processing

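For SDS, every difference kept its direction under all alternatives run, and the tested differences stayed short of the threshold. The untested differences chose the gene or are made of those that did, so their direction is a description. For the tested differences, the alternatives include the main fit at an adjusted p under 0.001, which could only repeat the main result. The Period 2 difference, RES minus ADLIB, was 0.12 to 0.35 on the log2 scale over 14 alternatives (adjusted p 0.99 to 1.0) and 0.16 to 0.51 over 20 fits without 1 animal each. The change over time in ADLIB animals was 0.11 to 0.52 over 13 alternatives (adjusted p 0.84 to 0.97) and 0.04 to 0.38 without 1 animal each; the lower bound was the fit without ADLIB Period 2 replicate 10. The same difference in Period 1 was -1.91 to -1.51, RES over time 2.06 to 2.47 and the difference of the changes 1.75 to 2.19 over the alternatives. Without 1 animal each they were -1.83 to -1.50, 2.06 to 2.42 and 1.79 to 2.21. Scaling without TMM, chosen after seeing the data, gave 0.26, 0.31, -1.70 and 2.26 for the first 4 of these, in the order above.

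The count of genes varying with SDS was 0 in 11 of 12 alternatives and in all 40 fits without 1 animal each (smallest adjusted p 0.44). The alternatives include the main fit at an adjusted p under 0.001, which could only repeat the 0. With the replicate number as a block the count was 1 gene, ENSBTAG00000008945 (slope 1.13, SE 0.19; limma, adjusted p = 0.026). The labels do not say that same-numbered animals shared a pen, litter or day. Same-numbered animals correlated on average at -0.105 to 0.158 in the 4 comparisons, and animals of other numbers at -0.00654 to 0.0247. The highest average, 0.158, was that of RES animals over time, against -0.00654 for other numbers. Of 10 same-numbered pairs 3 to 6 exceeded 0.1, and 1 to 4 of 20 animals correlated best with their own number. The block changed no call for SDS (0.28 with adjusted p = 1.0 for the Period 2 difference and 0.27 with adjusted p = 0.92 in ADLIB animals over time).

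At 6 to 102 reads in RES Period 1, counting error was a small part of the spread of SDS, and the spread between 10 animals set the precision.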
